A study of Mus musculus with 2 samples.

Results

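Complement is the set of blood and tissue proteins that tags targets for engulfment, draws in leukocytes and can open pores in membranes. Recognition by C1q starts the classical pathway through C4 and C2, factor B drives the amplification loop around C3, C6 belongs to the pore, and C1 inhibitor, the product of Serping1, blocks the first proteases. Liver makes much of the circulating supply, and macrophages and stromal fibroblasts are known local sources, C1q being a textbook macrophage product. Described here are 9 complement genes, of 32285 genes in the tables, chosen by symbol as makers of C1q (C1qa, C1qb, C1qc), makers of C3 and factor B together with the related convertase and pore genes (C3, Cfb, C2, C4b, C6) and a regulator (Serping1). Each was found once in the tables.

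The data were 2 single-cell RNA libraries, one from each of 2 orthotopic pancreatic allograft tumours in mice. KPC cells come from a pancreatic cancer of genetically engineered mice whose cancer alleles are switched on by a pancreatic Cre driver, and both groups received these cells. One tumour grew from KPC-shV cells, which carry the control vector, and the other from KPC-shZEB1 cells, which carry a hairpin against Zeb1; host cells had no hairpin. The labels name no drug, strain, sex or age for the 2 hosts, while the study's account of this model has both groups under gemcitabine. After filtering, 11451 cells with 102039660 unique molecular identifiers (UMIs, 1 per captured RNA molecule) remained for KPC-shV and 12147 cells with 119878880 UMIs for KPC-shZEB1. With 1 tumour per group no test between groups was possible, and every interval given is a 95% interval for counting error alone, which leaves out the spread between animals.

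Cells were grouped into 28 clusters without using any of 50 complement genes, and clusters were named from marker genes. Comparisons were made in the 9 classes with at least 50 cells in each library. These were granulocyte-like (6864 cells in KPC-shV and 4335 in KPC-shZEB1), monocyte-macrophage-like (1637 and 2507), tumour-like (1503 and 1430), B-like (290 and 1229), T-like (288 and 945), fibroblast-like (376 and 397), NK-like (141 and 448), dendritic-like (105 and 319) and endothelial-like (141 and 87) cells. Zeb1 itself was at 166.8 CPM (counts per 1000000 UMIs of a class) in tumour-like cells of KPC-shV and 192.1 CPM in KPC-shZEB1, a ratio of 1.15 (1.11 to 1.19). The knockdown is thus not seen in this RNA measure, and "the library labelled KPC-shZEB1" is what the name stands for below. These values were not corrected for RNA leaked from other cells, and T-like cells had 1274 and 1423 CPM of Zeb1. The study assessed the knockdown separately, in KPC cells and by Zeb1 staining of tumours. Across libraries, 46 barcodes occur in both libraries. The 4 tumour-like clusters include 2 (numbers 7 and 20) with no epithelial marker among their 10 leading genes and 1 (number 15) of low depth that carried macrophage transcripts.

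C1qa, C1qc and C1qb lie side by side on the minus strand of chromosome 4 (GRCm38, the build that mm10 denotes): C1qa at chr4:136895917-136898803, C1qc at chr4:136889804-136893065 and C1qb at chr4:136880129-136886187, with 2851 bp between C1qa and C1qc and 3616 bp between C1qc and C1qb. C2 (chr17:34862604-34898265) and Cfb (chr17:34856374-34862518) are neighbours 85 bp apart, also on the minus strand, in the region that holds C4b (chr17:34728380-34743882, minus). C3 is at chr17:57203970-57228136 (minus), C6 at chr15:4727175-4814967 (plus) and Serping1 at chr2:84765387-84775444 (minus). The files count whole genes, so no exon or untranslated part of a gene can be set apart.

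RefSeq promoter windows on GRCm38.p6 were found for 4 of the 9 genes (C1qb, C1qc, C3 and C6). Shown are those of C1qb and C1qc, neighbours that share 1 cell class, and of C3, which does not, each 5′ to 3′ on the gene's own strand, minus in all 3 cases, and cut where the annotated gene begins. The windows are chr4:136886201-136886450 for C1qb, chr4:136893066-136893164 for C1qc and chr17:57228137-57228386 for C3. Capitals mark the reverse complement of GAGGAAG.
C1qb: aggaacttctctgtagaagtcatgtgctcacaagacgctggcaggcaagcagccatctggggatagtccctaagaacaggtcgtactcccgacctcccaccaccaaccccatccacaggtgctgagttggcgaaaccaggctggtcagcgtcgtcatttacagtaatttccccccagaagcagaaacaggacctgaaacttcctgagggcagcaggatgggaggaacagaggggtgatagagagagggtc
C1qc: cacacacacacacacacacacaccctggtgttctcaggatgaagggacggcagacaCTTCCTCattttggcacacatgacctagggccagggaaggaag
C3: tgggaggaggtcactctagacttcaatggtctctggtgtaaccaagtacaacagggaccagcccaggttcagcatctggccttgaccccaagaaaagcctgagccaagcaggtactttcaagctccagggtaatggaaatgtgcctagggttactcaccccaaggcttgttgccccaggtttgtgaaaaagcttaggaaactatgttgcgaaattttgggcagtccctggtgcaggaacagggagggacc
Of 3 motifs searched on both strands in the 250 bases before each start, GAGGAAG (a core that ETS factors such as PU.1 can bind) was in 1 of the 4 windows, that of C1qc, and in 10.6% of all 32851 promoter windows of that length. TTCNNNGAA, a STAT-type motif, was in none and in 7.02% of all. An interferon-response type of motif, GAAA followed by any 2 bases and GAAA, was in none and in 2.98% of all. The motifs can overlap one another, and a match is a description of letters only.

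**Figure D1:**
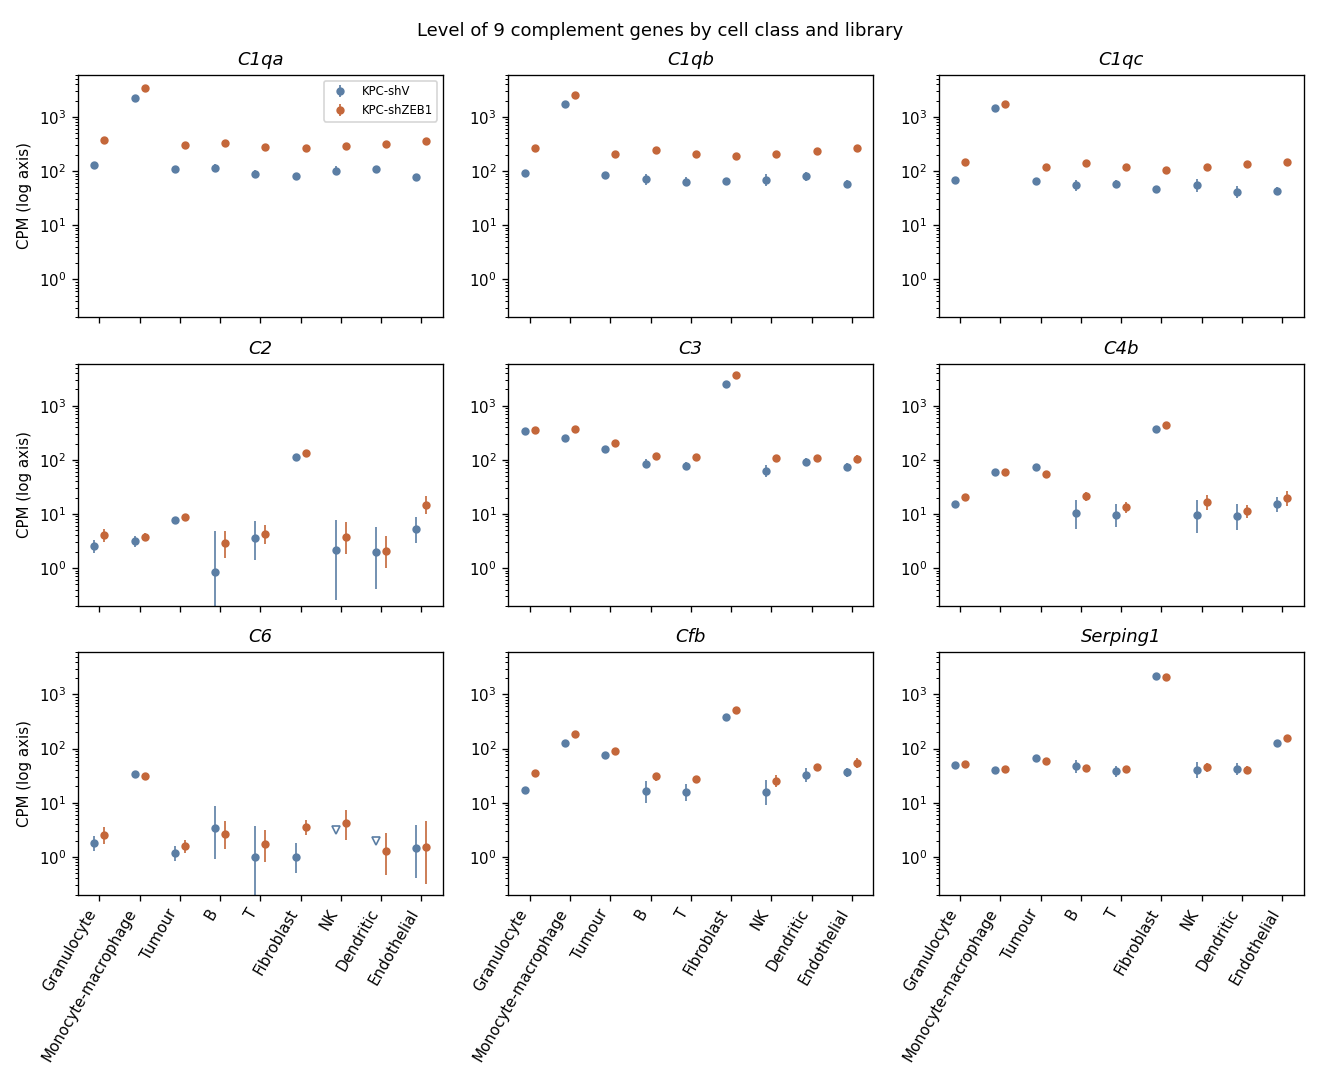
Level of each gene in CPM of the class total (log axis) by class, KPC-shV in blue and KPC-shZEB1 in orange; bars are 95% counting intervals and open triangles mark the 3-count floor where no UMI was seen. C1qa, C1qb, C1qc and C6 stand highest in monocyte-macrophage-like cells, and C2, C3, C4b, Cfb and Serping1 in fibroblast-like cells.

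The 9 genes fell to 2 maker classes, the class with the highest mean CPM. C1qa, C1qb, C1qc and C6 were highest in monocyte-macrophage-like cells, whereas C2, C3, C4b, Cfb and Serping1 were highest in fibroblast-like cells, and this held in each library. No class other than these 2 led for any member. CPM values compare classes and libraries for 1 gene; since the chemistry counts 3′ ends, levels of different genes are not set against each other.

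C1q is built from 3 chains, each from its own gene, and its A chain gene, C1qa, was at 2204 CPM in monocyte-macrophage-like cells of KPC-shV (52093 UMIs) and 3384 CPM in those of KPC-shZEB1 (130306 UMIs). The ratio was 1.54 (1.52 to 1.55), just past the 1.5-fold line used here as a call. The B chain gene, C1qb, was at 1736 and 2521 CPM, a ratio of 1.45 (1.44 to 1.47). The C chain gene, C1qc, was at 1474 and 1752 CPM, a ratio of 1.19 (1.17 to 1.20). All 3 were higher in KPC-shZEB1 by more than counting error and by unequal amounts. C1qa was the 1 member of 9 past the call in this class, where 8.36% of the 13691 genes with at least 50 UMIs were past it in that direction. Its call was lost with cells assigned by marker UMIs (1.48), with background RNA subtracted (1.49) and after division by the median ratio of the class (1.49). The sum of the 3 was 5414 and 7657 CPM, a ratio of 1.41 (1.41 to 1.42).

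The make-up of the C1q UMIs shifted accordingly. C1qc gave 27.2% of the C1q UMIs of monocyte-macrophage-like cells in KPC-shV and 22.9% in KPC-shZEB1, and C1qa gave 40.7% and 44.2%. C1qb stayed at 32.1% and 32.9%. A median cell of this class held 51 C1q UMIs in KPC-shV and 101 in KPC-shZEB1, at median depths of 13227 and 14399 UMIs per cell. All 3 chains were seen together in 79.7% of the cells and 93.2%, and, with all cells brought to 1000 UMIs by random thinning, in 43.9% and 58.7%.

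Each other class held C1q UMIs as well, at a level far below that of the monocyte-macrophage-like class of its library. The summed C1q level outside the monocyte-macrophage-like class ran from 178.1 CPM (endothelial-like) to 287.2 CPM (granulocyte-like) in KPC-shV and from 558.1 CPM (fibroblast-like) to 787.3 CPM (granulocyte-like) in KPC-shZEB1. For C1qa, neighbours in the order of these 8 classes did not differ beyond counting error in KPC-shV. In KPC-shZEB1 they differed at the last step alone, T-like (283.0 CPM) over fibroblast-like (266.3 CPM). More steps were beyond it for C1qb: granulocyte-like over tumour-like in KPC-shV, and dendritic-like over T-like and tumour-like over fibroblast-like in KPC-shZEB1. Small steps do not make the ends alike. C1qa was at 127.4 CPM (122.8 to 132.1) in granulocyte-like and 76.2 CPM (66.1 to 87.4) in endothelial-like cells of KPC-shV. In KPC-shZEB1 it was at 377.8 CPM (367.5 to 388.3) in granulocyte-like cells. The proportions of the chains there ranged more widely in KPC-shV than in KPC-shZEB1. C1qc gave from 17.8% to 27.5% of the C1q UMIs of these classes in KPC-shV and from 18.7% to 19.9% in KPC-shZEB1. The 2 ends in KPC-shV rest on few C1q UMIs, 348 in dendritic-like and 415 in T-like cells. In KPC-shZEB1 each of these classes had 1492 or more, so the wider range is not read as a trait of the library.

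These values were set against free RNA, the transcripts that leak into all droplets of a library. Its share in each class was estimated from marker genes of other cell types and came to between 11.9% and 24.0% of a class's UMIs. The summed C1q level over the free RNA level so estimated was 33.3 in monocyte-macrophage-like cells of KPC-shV and 16.6 in those of KPC-shZEB1. In the 8 other classes it lay between 0.872 (fibroblast-like) and 1.60 (dendritic-like) in KPC-shV and between 1.09 (fibroblast-like) and 1.46 (dendritic-like) in KPC-shZEB1. By counting error alone some levels lay above the estimate. C1qa was at 314.6 CPM (298.9 to 330.9) in dendritic-like cells of KPC-shZEB1, against 209.5 CPM. Others lay below it, as in fibroblast-like cells of KPC-shV, at 82.4 CPM against 91.8 CPM. The error of the estimate itself was not measured. C1q at these class levels outside the monocyte-macrophage-like class is therefore not read as expression, and is called background level below. Tumour-like cluster 15, described further on, lay well above the level of its class. The 2.37-fold to 4.31-fold higher C1q sums of these classes in KPC-shZEB1 go with a higher C1q level of the library as a whole, 595.3 and 1299 CPM for C1qa over all cells. In endothelial-like cells of KPC-shZEB1, 5 of 87 cells held 45.1% of the C1qa UMIs.

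Shares of cells with a UMI show the same background. At least 1 C1q UMI was found in 97.1% of monocyte-macrophage-like cells in KPC-shV and 99.9% in KPC-shZEB1, but also in 58.0% and 88.5% of granulocyte-like cells, at median depths of 3148 and 2904 UMIs per cell. Thinned to 1000 UMIs per cell, the shares were 82.2% and 93.2% against 24.5% and 54.1%. The share in monocyte-macrophage-like cells was above that of granulocyte-like cells in each library, and both were higher in KPC-shZEB1, where the free C1q level in the monocyte-macrophage-like class was put at 460.1 CPM against 162.4 CPM in KPC-shV. Its part in the higher shares was not tested.

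**Figure D2:**
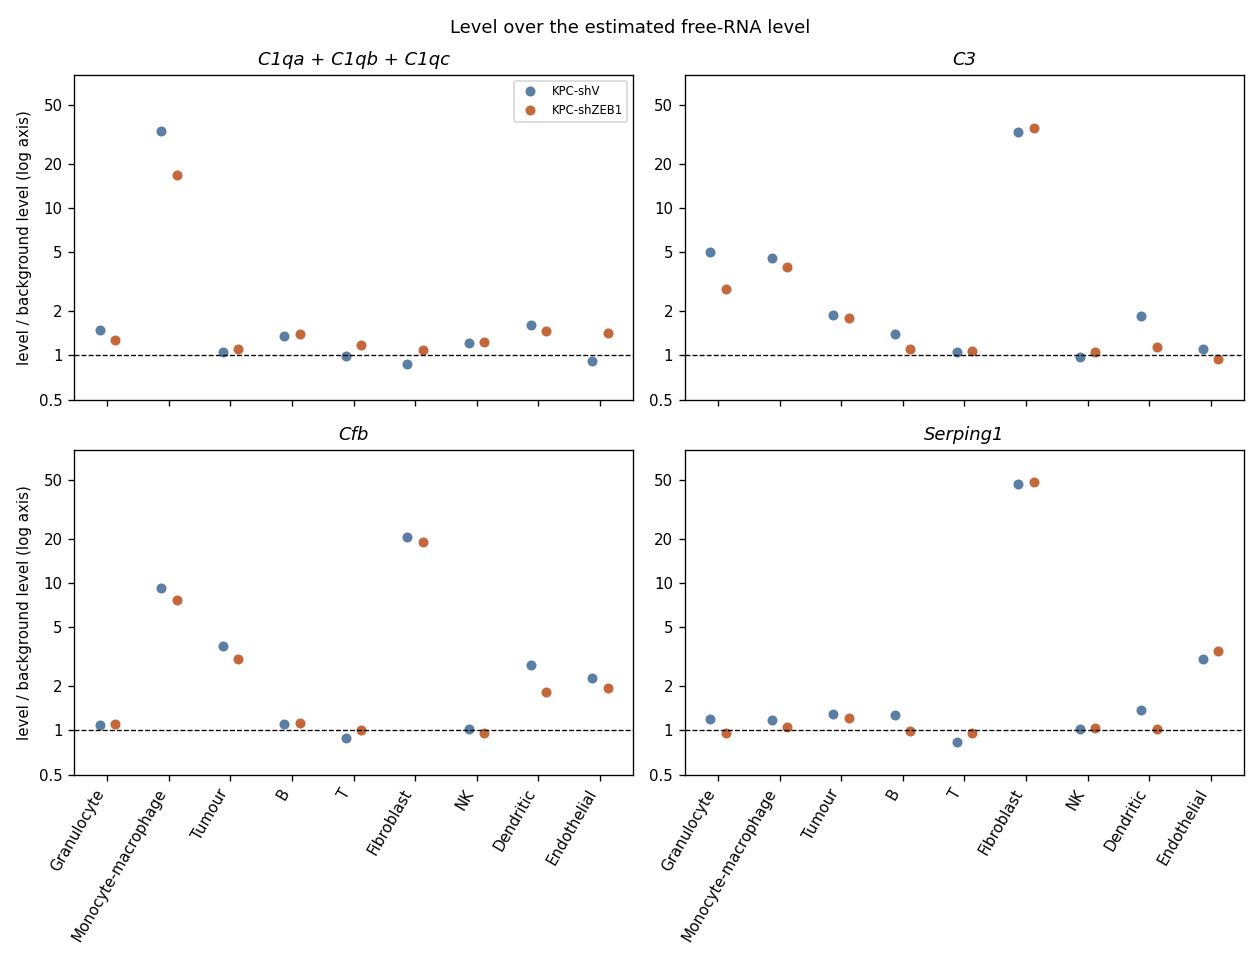
Level of each gene over the level estimated from free RNA (log axis; dashed line at 1) by class, KPC-shV in blue and KPC-shZEB1 in orange. The C1q sum stands far above 1 in monocyte-macrophage-like cells, at 33.3 and 16.6, and at 1.60 or less in the others. Besides fibroblast-like cells, C3 is at 5.03 and 2.81 in granulocyte-like cells and 4.57 and 3.98 in monocyte-macrophage-like cells, and Serping1 at 3.04 and 3.43 in endothelial-like cells.

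Within the tumour-like class, cluster 15 stood apart. Its summed C1q level was 1955 CPM in KPC-shV (306 cells) and 1898 CPM in KPC-shZEB1 (304 cells), at median depths of 2214 and 2294 UMIs per cell, against 167.8 to 214.5 CPM and 553.4 to 589.7 CPM in the 3 other tumour-like clusters at median depths of 24384.5 UMIs or more. Its 10 macrophage markers summed to 715.8 and 596.5 CPM, against 152.2 to 247.9 and 233.7 to 291.9 CPM. Without cluster 15 the C1q sum of tumour-like cells was 204.3 and 568.3 CPM. The part of these transcripts in the cluster's C1q level was not tested.

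Among monocyte-macrophage-like cells the C1q level differed by sub-cluster more than by library. C1qa was highest in sub-cluster 0 (led by Vcam1, Gdf15 and Ccl5), at 3671 CPM in KPC-shV and 4617 CPM in KPC-shZEB1, and in sub-cluster 3 (led by Bmp2, Lyve1, Fcna and Folr2), at 3068 and 4021 CPM, leaving aside sub-cluster 6 with 31 and 16 cells. Of the sub-clusters found in both libraries it was lowest in sub-cluster 1, led by Plcb1, Vcan, Chil3, Plac8 and Ly6c2, the last a gene of inflammatory monocytes, at 601.9 and 1481 CPM. That sub-cluster showed the widest gap between libraries, 2.46-fold (2.36 to 2.57), and sub-cluster 4 (led by Gpnmb, Atp6v0d2 and Mmp8) followed at 1611 and 3059 CPM, 1.90-fold (1.83 to 1.97). Sub-clusters 0 and 3 had ratios of 1.26 (1.24 to 1.28) and 1.31 (1.28 to 1.34). The sub-clusters with the least C1qa thus had the highest ratios. C1qc likewise went from 1.97 in sub-cluster 1 to 0.971 in sub-cluster 0. The free RNA level of C1qa in this class was put at 66.9 CPM in KPC-shV and 206.1 CPM in KPC-shZEB1, and its part in the ratio of sub-cluster 1 was not tested.

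Sub-cluster 1 made up 25.1% of the class in KPC-shV and 17.4% in KPC-shZEB1, and sub-cluster 0 made up 19.5% and 25.9%. With each sub-cluster held at its mean share of UMIs, the C1qa ratio was 1.43, that of C1qb 1.37 and that of C1qc 1.11. C1qa was then below the call as well.

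**Figure D3:**
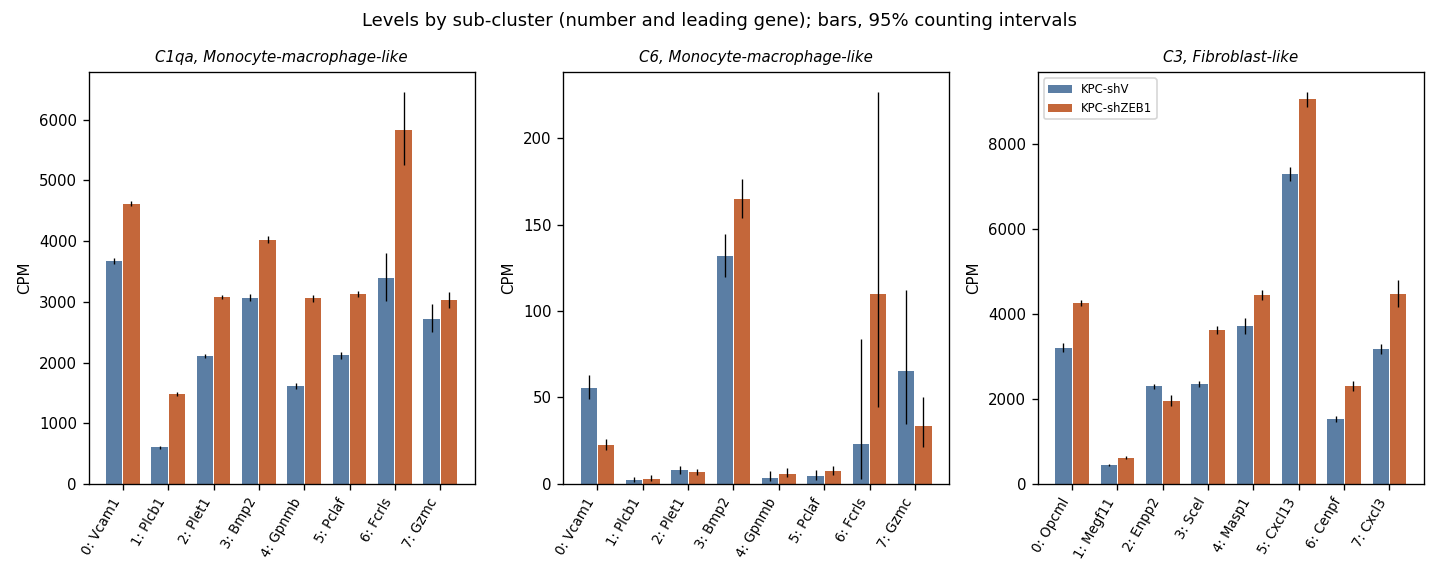
CPM of C1qa and C6 by sub-cluster of monocyte-macrophage-like cells and of C3 by sub-cluster of fibroblast-like cells (number and leading gene), KPC-shV in blue and KPC-shZEB1 in orange, with 95% counting intervals. C1qa is lowest in sub-cluster 1, C6 is highest in sub-cluster 3 in each library, and C3 is highest in sub-cluster 5.

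C6, a component of the membrane pore, followed C1q in class but not in detail. It was at 33.3 CPM in monocyte-macrophage-like cells of KPC-shV (788 UMIs) and 31.2 CPM in those of KPC-shZEB1 (1200 UMIs), a ratio of 0.935 (0.854 to 1.02) that holds 1. Elsewhere C6 reached at most 4.18 CPM (NK-like, KPC-shZEB1, 11 UMIs), and no UMI was seen in 141 NK-like or 105 dendritic-like cells of KPC-shV, which allows a share of cells with a UMI of up to 2.13% and 2.86% by the limit of 3 counts over the number of cells, which is not a 95% interval. A C6 UMI was found in 19.8% and 17.6% of monocyte-macrophage-like cells, and in 0.597% and 0.784% of granulocyte-like cells.

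C6 was highest in sub-cluster 3, the one led by Bmp2 and Lyve1, at 131.8 CPM in KPC-shV and 164.8 CPM in KPC-shZEB1, a ratio of 1.25 (1.11 to 1.41). Sub-cluster 0 held 55.6 and 22.8 CPM, a ratio of 0.41 (0.341 to 0.493), and sub-clusters 1, 2, 4 and 5 held between 2.06 and 7.86 CPM. The class value near 1 thus joins one macrophage sub-cluster with more C6 in KPC-shZEB1 and one where it fell past the 1.5-fold line.

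C3, whose cleavage all complement pathways share, was at 2524 CPM in fibroblast-like cells of KPC-shV (27723 UMIs) and 3690 CPM in those of KPC-shZEB1 (40341 UMIs). The ratio was 1.46 (1.44 to 1.49), above counting error and under the 1.5-fold call. It was 2.16 when complement genes were kept in the clustering and 2.13 with a lower limit on genes and UMIs per cell. In these alternatives the class also held 455 and 454 cells of KPC-shV and 159 and 165 of KPC-shZEB1 that were tumour-like in the reported clustering. Of those, 455 and 446 in KPC-shV and 159 and 159 in KPC-shZEB1 were of cluster 7, in which 4 of 7 tumour markers were detected, and whether they are tumour cells or fibroblasts was not tested. Granulocyte-like cells came next in KPC-shV at 336.1 CPM, with 359.3 CPM in KPC-shZEB1, and monocyte-macrophage-like cells were at 256.9 and 377.4 CPM, a ratio of 1.47 (1.43 to 1.51). Tumour-like cells were at 160.4 and 206.5 CPM, a ratio of 1.29 (1.24 to 1.33). The 5 remaining classes lay between 62.8 and 91.7 CPM in KPC-shV and between 104.9 and 117.0 CPM in KPC-shZEB1, where neighbours did not differ beyond counting error.

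Against free RNA, C3 in fibroblast-like cells was at 32.7 and 35.0 times the background. It was at 5.03 and 2.81 times in granulocyte-like cells, 4.57 and 3.98 times in monocyte-macrophage-like cells and 1.88 and 1.78 times in tumour-like cells. T-like, NK-like and endothelial-like cells were between 0.945 and 1.11 times, so their C3 is read as background, and dendritic-like cells were at 1.85 and 1.14 times. Of the granulocyte-like clusters, number 2, led by Ccl3 and Mreg, had 463.5 and 538.7 CPM, and number 3, led by Retnlg and Lrg1, had 242.1 and 273.1 CPM. The median ratio over all genes of the granulocyte-like class was 1.20 (0.27 on the log2 scale), and relative to it the C3 ratio of 1.07 became 0.888.

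Fibroblast-like sub-clusters spanned a wide range of C3, from 440.4 CPM in KPC-shV and 615.7 CPM in KPC-shZEB1 in sub-cluster 1 (led by Megf11, Kcnq3, Cxcl14 and Actg2) to 7291 and 9043 CPM in sub-cluster 5 (led by Cxcl13, Chrm3, Sned1 and Cxcl12). Sub-clusters 0, 3 and 4 had 3203 and 4253, 2347 and 3609, and 3707 and 4452 CPM. C3 was higher in KPC-shZEB1 in 7 of the 8 sub-clusters, with ratios from 1.20 to 1.54. Sub-cluster 2, led by Enpp2, Gpm6a and Slpi, was the exception at 2295 and 1961 CPM, a ratio of 0.854 (0.798 to 0.914), with 88 cells in KPC-shV and 17 in KPC-shZEB1. Its leading genes include Nkain4, a mesothelial marker, and whether its cells are fibroblasts or mesothelial cells was not tested. Sub-cluster 7, with 29 and 7 cells, was led by granulocyte genes such as S100a8.

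The make-up of the fibroblast-like class moved with these values. Sub-cluster 0, led by Opcml, Lrrc17 and Il1rl1, was 10.6% of the class in KPC-shV and 29.0% in KPC-shZEB1, and sub-cluster 2 was 23.4% and 4.28%. The 6 mesothelial markers, Nkain4 among them, summed to 525.4 CPM and 341.2 CPM in the class, and none of them was at 0 in both libraries. In the other classes the sum ran from 4.26 CPM (B-like, KPC-shV) to 12.6 CPM (tumour-like, KPC-shV). With sub-clusters held at their mean shares, the C3 ratio was 1.27.

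Cfb, the factor B gene of the amplification loop, was well above free RNA in 3 classes. Fibroblast-like cells were at 380.6 CPM in KPC-shV (4180 UMIs) and 506.0 CPM in KPC-shZEB1 (5531 UMIs), a ratio of 1.33 (1.28 to 1.38) that became 1.92 and 1.90 under the same alternatives as for C3. Monocyte-macrophage-like cells were at 124.2 and 183.8 CPM, a ratio of 1.48 (1.42 to 1.54), and tumour-like cells at 76.96 and 89.2 CPM, a ratio of 1.16 (1.10 to 1.22) that turned to 0.932 and 0.938 under those alternatives. These levels were 20.6 and 18.9, 9.21 and 7.62, and 3.76 and 3.03 times the free RNA level in turn. Endothelial-like cells (36.4 and 54.5 CPM) and dendritic-like cells (33.0 and 44.8 CPM) followed and did not differ from each other beyond counting error, at 1.83 to 2.77 times the background. Granulocyte-like, B-like, T-like and NK-like cells were within 0.886 to 1.12 times it.

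By sub-cluster, Cfb in fibroblast-like cells was at 595.9 and 925.0 CPM in sub-cluster 5 and at 48.2 and 143.7 CPM in sub-cluster 1, ratios of 1.55 (1.41 to 1.72) and 2.98 (2.41 to 3.71). In sub-clusters 0, 3 and 4 its ratios were 0.978, 0.985 and 0.931, with intervals that hold 1. With sub-clusters at their mean shares the class ratio was 1.10. Among monocyte-macrophage-like cells Cfb was lowest in sub-cluster 1, at 55.0 and 131.0 CPM, a ratio of 2.38 (2.06 to 2.75), and at fixed shares the class ratio was 1.41.

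C2 encodes the protease of the classical convertase and lies next to Cfb. It was at 111.4 CPM in fibroblast-like cells of KPC-shV (1223 UMIs) and 132.2 CPM in those of KPC-shZEB1 (1445 UMIs), a ratio of 1.19 (1.10 to 1.28) that passed the call, at 1.81, with complement genes kept in the clustering. Tumour-like cells were next at 7.66 and 8.75 CPM in KPC-shV and KPC-shZEB1, 2.50 and 2.51 times the background, apart from endothelial-like cells of KPC-shZEB1 at 14.9 CPM, where 29 UMIs were counted. Endothelial-like cells of KPC-shV had 5.21 CPM, from 14 UMIs, and the other classes at most 4.25 CPM. Unlike Cfb, C2 was close to the free RNA level in monocyte-macrophage-like cells, at 3.13 and 3.74 CPM, 1.55 and 1.31 times it.

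C4b encodes complement C4, the partner of C2 in the classical convertase. Its counts are uncertain, since C4a, a near-identical copy 65209 bp away, can take or lose its reads; C4a had 7 and 11 UMIs in fibroblast-like cells. C4b was at 373.2 CPM in fibroblast-like cells of KPC-shV (4099 UMIs) and 442.4 CPM in those of KPC-shZEB1 (4836 UMIs), a ratio of 1.19 (1.14 to 1.24) that turned to 0.93 with sub-clusters at their mean shares and passed the call, at 1.56, with complement genes kept in the clustering. Monocyte-macrophage-like cells were at 58.6 and 59.4 CPM, a ratio of 1.01 (0.948 to 1.08).

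Tumour-like cells had 74.6 CPM of C4b in KPC-shV and 55.0 CPM in KPC-shZEB1, a ratio of 0.737 (0.694 to 0.782), the lowest ratio of any member with at least 50 UMIs in the 9 classes and within the 1.5-fold line. Cluster 7, led by Cntn5, Prg4 and Adgrl3, held 92.2 and 87.8 CPM, and cluster 13, led by Epcam, held 32.4 and 35.7 CPM. Cluster 7 was 58.0% of the tumour-like cells in KPC-shV and 35.6% in KPC-shZEB1, whereas cluster 20, with 16.9 CPM in KPC-shZEB1, was 0.599% and 16.2%. With clusters at their mean shares the ratio was 0.989.

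Macrophage C4b was concentrated as C6 was. Sub-cluster 3 held 222.4 CPM of C4b in KPC-shV and 228.4 CPM in KPC-shZEB1, and sub-clusters 1, 2, 4 and 5 held 16.1 to 34.5 CPM. C1q was not restricted in this way, C1qa being at 601.9 CPM or more in each sub-cluster.

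Serping1 encodes C1 inhibitor, which binds and inactivates C1r and C1s. It was at 2221 CPM in fibroblast-like cells of KPC-shV (24395 UMIs) and 2097 CPM in those of KPC-shZEB1 (22927 UMIs), a ratio of 0.944 (0.927 to 0.962). It turned to 1.42 with complement genes kept in the clustering and to 1.40 with the lower limit on genes and UMIs, the alternatives in which cells of cluster 7 were named fibroblast-like. A UMI was seen in 99.5% and 99.7% of fibroblast-like cells, and in 79.5% and 81.9% after thinning to 1000 UMIs, against 4.68% and 5.14% of thinned granulocyte-like cells. All fibroblast-like sub-clusters held it, from 1104 CPM (sub-cluster 2, KPC-shZEB1) to 3851 CPM (sub-cluster 5, KPC-shV), a narrower range than that of C3. The ratio was under 1 in 7 of 8 sub-clusters and 0.832 at fixed shares.

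Endothelial-like cells were the next class for Serping1, at 126.0 and 157.3 CPM, a ratio of 1.25 (1.07 to 1.46), and 3.04 and 3.43 times the background; 5 cells held 34.8% and 41.2% of these UMIs. The ratio turned to 0.973 without the barcodes of highest doublet score and to 0.855 with cells assigned by marker UMIs. Tumour-like cells were at 67.8 and 58.0 CPM, a ratio of 0.856 (0.806 to 0.908). Their levels were only 1.29 and 1.21 times the free RNA level, within the range given next for the other 6 classes. In the other 6 classes Serping1 lay between 38.1 and 51.0 CPM, neighbours did not differ beyond counting error, and levels were 0.838 to 1.37 times the free RNA level. Serping1 therefore differed from C3 and Cfb, which were also above background in monocyte-macrophage-like cells.

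**Figure D4:**
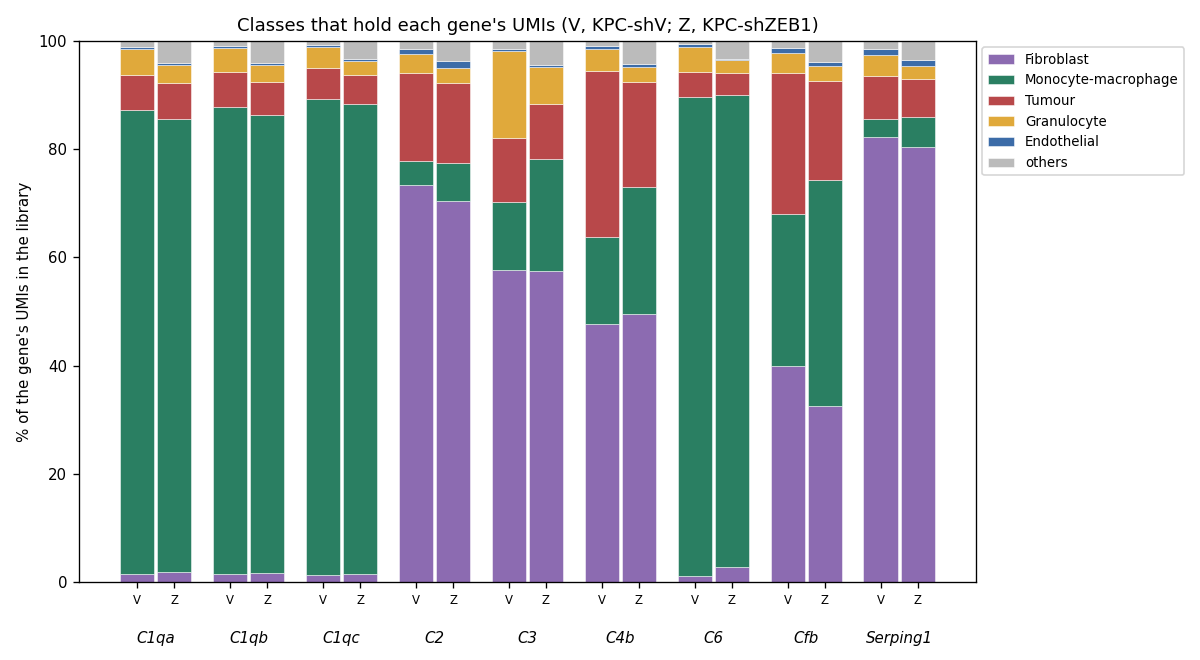
Share of each gene's UMIs in a library (%) held by 5 classes and by all others together, V for KPC-shV and Z for KPC-shZEB1. Monocyte-macrophage-like cells held most C1q and C6 UMIs and fibroblast-like cells most Serping1 and C2 UMIs, while C3, C4b and Cfb were spread over several classes.

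Summed over all cells, monocyte-macrophage-like cells held 85.7% of C1qa UMIs in KPC-shV and 83.7% in KPC-shZEB1, and 88.4% and 87.2% of C6 UMIs. Fibroblast-like cells, only 3.28% and 3.27% of the cells, held 82.2% and 80.3% of Serping1 UMIs, 73.4% and 70.4% of C2 UMIs and 57.6% and 57.4% of C3 UMIs. For Cfb the largest holder changed: fibroblast-like cells held 40.0% in KPC-shV and 32.6% in KPC-shZEB1, and monocyte-macrophage-like cells 28.1% and 41.7%. For C3 the granulocyte-like share was 16.0% and 6.87% and the monocyte-macrophage-like share 12.6% and 20.7%. For C4b the tumour-like share was 30.6% and 19.5%. These shares follow the number of cells captured as well as the level per cell, and include free RNA.

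Over all kept cells C1qa was at 595.3 CPM in KPC-shV and 1299 CPM in KPC-shZEB1, 2.18-fold (2.16 to 2.20), and 1.69-fold when each class was held at its mean share of UMIs. C1qb was 2.06-fold and 1.59-fold higher, and C1qc 1.67-fold and 1.28-fold. C3 was at 471.4 and 586.0 CPM, a ratio of 1.24 over all cells and 1.39 at fixed composition. Serping1 was at 290.7 and 238.2 CPM, ratios of 0.819 and 0.948, and C6 at 8.73 and 11.5 CPM, ratios of 1.31 and 1.01. The ratios of Cfb were 1.38 and 1.37, of C2 1.05 and 1.21, and of C4b 0.967 and 1.03. Monocyte-macrophage-like cells gave 23.2% of the UMIs of KPC-shV and 32.1% of those of KPC-shZEB1, fibroblast-like cells 10.8% and 9.12%.

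**Figure D5:**
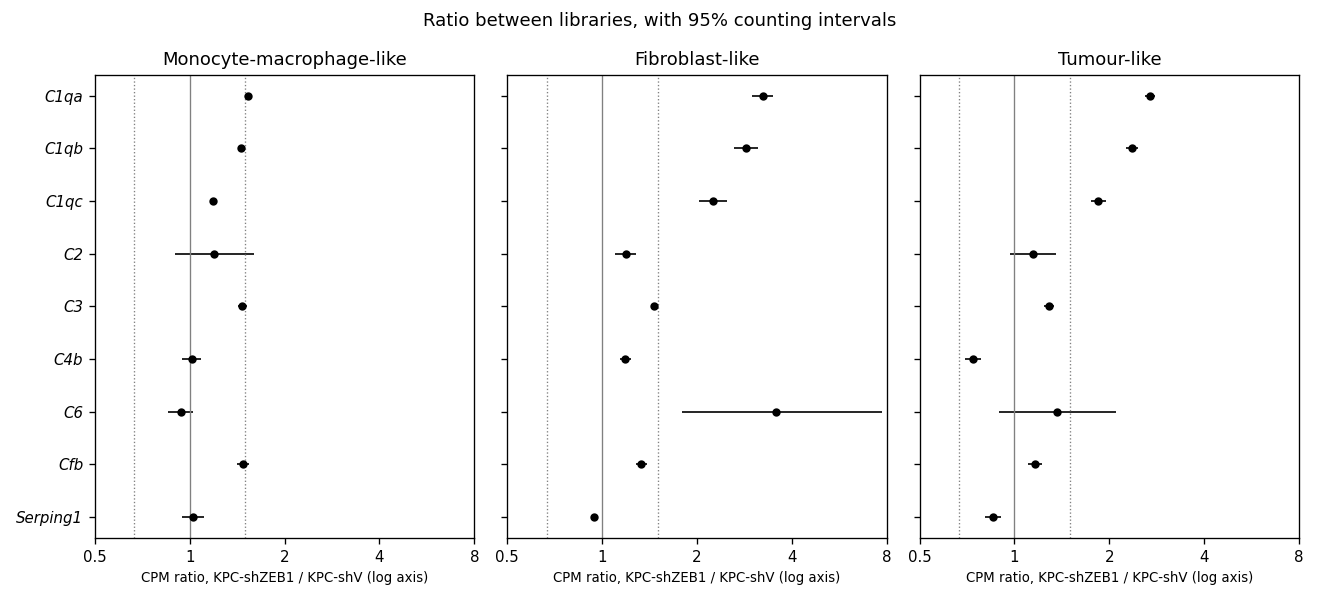
CPM ratio of KPC-shZEB1 over KPC-shV (log axis) for each gene in 3 classes, with 95% counting intervals; the solid line is 1 and dotted lines mark 1.5-fold. In monocyte-macrophage-like cells C1qa alone is past the line, and in fibroblast-like and tumour-like cells the genes past it are C1qa, C1qb and C1qc, at background level there, and C6 in fibroblast-like cells at 3.57 CPM or less.

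Counts of members past 1.5-fold were as follows. In fibroblast-like cells 4 of 9 members were higher in KPC-shZEB1 (5.97% of all genes tested), namely the 3 C1q genes, at background level, and C6, at 1.00 CPM from 11 UMIs and 3.57 CPM from 39. In tumour-like cells 3 of 9 were (10.9%), all C1q genes. In granulocyte-like cells 5 of 9 were (22.1%), the C1q genes with C2 and Cfb at 1.06 to 1.10 times the free RNA level. Of 7 members with enough UMIs, 5 were in B-like cells (10.9%), 4 in T-like cells (7.99%), 6 in NK-like cells (8.77%), 3 in dendritic-like cells (8.84%) and 3 in endothelial-like cells (9.92%), again with the C1q genes in each. The intervals of C4b (0.82 to 3.98) and Cfb (0.902 to 3.01) in NK-like cells hold 1. No member was lower past the line in any of the 9 classes, where 2.94% (granulocyte-like), 1.78% (monocyte-macrophage-like), 3.82% (tumour-like), 2.89% (B-like), 2.88% (T-like), 5.11% (fibroblast-like), 3.55% (NK-like), 4.72% (dendritic-like) and 5.13% (endothelial-like) of genes were. Outside monocyte-macrophage-like cells the C1q genes, at background level, are among the called members of each class.

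Of 41 other complement genes, 21 had enough UMIs in monocyte-macrophage-like cells, and 3 were higher and 1 lower past 1.5-fold, beside 8.36% and 1.78% of all genes tested. None of the 41 was set against free RNA, in this class or in those that follow. Those higher were C1ra (a protease of the C1 complex, 9.31 and 15.6 CPM, 1.68-fold), Cd55 (a membrane inhibitor of convertases, 4.70 and 9.79 CPM, 2.08-fold) and Cr2 (a C3 fragment receptor of B cells, 0.381 and 1.69 CPM from 9 and 65 UMIs). The 5 B markers summed to 10.9 and 29.0 CPM in this class, and the part of free RNA in the Cr2 values was not tested. Vsig4, a macrophage receptor for C3 fragments, was lower, at 6.18 and 4.00 CPM, 0.647-fold (0.513 to 0.818). Cfp, the gene of properdin, had its highest level here and was at 276.8 and 289.4 CPM, a ratio of 1.04 (1.01 to 1.08), and C3ar1, the C3a receptor, was at 201.3 and 173.6 CPM, a ratio of 0.863 (0.831 to 0.895).

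In fibroblast-like cells 23 of the 41 could be compared, 6 higher and 1 lower, beside 5.97% and 5.11% of all genes. Higher were Vtn (vitronectin, an inhibitor of pore assembly, 4.46 and 14.4 CPM, 3.24-fold), C7 (a pore component, 1.46 and 4.57 CPM, 3.14-fold) and C1s2 (a C1s copy, 2.00 and 3.48 CPM, 1.73-fold), all with their highest level in this class, and Fcna, Cfp and C3ar1, whose highest level was in monocyte-macrophage-like cells. Itgam, a leukocyte receptor chain for C3 fragments, was lower, at 24.7 and 13.9 CPM. The 8 granulocyte markers summed to 1511 and 678.4 CPM in this class. The part of free RNA in the values of Itgam, Fcna, Cfp and C3ar1 was not tested. The more abundant partners of the classical pathway were within the line: C1s1 at 442.1 and 415.5 CPM (0.94) and C1ra at 147.0 and 192.1 CPM (1.31). C1s1 with C1s2 and C1ra with C1rb are near copies, so their counts are uncertain.

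Tumour-like cells had 25 of the 41 genes tested, 6 higher and 1 lower, beside 10.9% and 3.82% of all genes. Cfi, the protease that cuts C3b and C4b, was lower at 10.8 and 5.87 CPM, 0.541-fold (0.454 to 0.643), and Cd55 was higher at 11.2 and 18.6 CPM, 1.66-fold (1.47 to 1.89). Fcna, Cr2 and Itgax, with their highest levels in immune classes, and Hc and C4bp, with at most 46 UMIs in a library, made up the rest. Clu, a soluble inhibitor of the pore, was abundant and close to equal at 1925 and 1996 CPM, a ratio of 1.04 (1.03 to 1.05). Cfd, the factor D gene that activates factor B, had 0 UMIs in 8 of the 9 classes and 1 in tumour-like cells of KPC-shZEB1.

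A pair of gene lists for responses under which complement genes are known to move were compared in the same way. Of 16 interferon gamma response genes, 7 were higher past 1.5-fold in monocyte-macrophage-like cells and 7 in fibroblast-like cells, with medians of 1.48 and 1.39 against 1.03 and 0.982 for all genes, and none was lower. Of all genes, 8.36% and 5.97% were higher past the line in these classes, and 1.78% and 5.11% were lower. In tumour-like cells 13 were (10.9% of all genes), with a median of 2.05 against 1.02, and in granulocyte-like cells all 16 (22.1% of all genes), with 2.13 against 1.20. The granulocyte-like clusters differed in share between libraries, cluster 8, led by Gbp5 of this list and Acod1, being 6.12% and 17.8% of the class and cluster 0 13.8% and 36.1%. Of 10 acute phase and NF-kB genes, 9 could be compared in each of these 4 classes. In monocyte-macrophage-like cells none was higher and 1 lower (8.36% and 1.78% of all genes), with a median of 0.924. In fibroblast-like cells 4 were higher and none lower (5.97% and 5.11%), with a median of 1.15. In tumour-like cells 2 were higher and 1 lower (10.9% and 3.82%), with a median of 0.970. In granulocyte-like cells none was higher or lower (22.1% and 2.94%), with a median of 1.16. Whether either response has a part in the complement values was not tested.

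The genes most like each member were ranked by Pearson's r of log2(CPM + 1) over 18 points (9 classes in each of 2 libraries) among 16648 genes. The points share libraries and background, so r is a description. C1qa and C1qb were closest to Apoe, Lyz2 and Ccl8 (r from 0.979 to 0.986) and C1qc to Ccl8, Ms4a7 and Lyz2 (0.987 to 0.992). C6 was closest to Retnla, Nxpe5 and Htra4 (0.932 to 0.934). Cfb had Slc46a1 and Gaa among its closest 3 (0.965 and 0.960). C3 was closest to Tnfaip6, Clmp and Saa3 (0.957 to 0.976), C4b to Col14a1, Sat2 and Gas6 (0.972 to 0.979), C2 to Tln2, Chrna1os and Mfap2 (0.972 to 0.974) and Serping1 to Gpc6, Abi3bp and Fzd3 (0.984 to 0.993). The neighbours C2 and Cfb had an r of 0.808 with each other, below that of C2 with Serping1 (0.954) and that of Cfb with C4b (0.941).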

How the data were processed

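Whole pancreatic allograft tumours were dissociated, and 1 library per group was made with a droplet chemistry that captures 3′ ends. Per the labels the reads were processed with Cell Ranger 7.0.1 on mm10. The deposited matrices hold raw UMI counts per gene and barcode, 12594 barcodes with 130941086 UMIs (KPC-shV) and 13271 with 143461224 (KPC-shZEB1). Whether intronic reads were counted is not given in the sources used here. Barcodes were dropped below 500 genes, outside 1000 to 60000 UMIs, or where mitochondrial transcripts passed 15%. Doublets with a score above 0.2 were removed, 262 (2.24%) and 300 (2.41%). Both libraries were clustered together in scanpy 1.11.5 with leidenalg 0.10.2 (3000 variable genes without complement genes, 30 components, 20 neighbours, resolution 1). Clusters were named from fixed markers. Maker classes were clustered again at resolution 0.6.

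UMIs were summed by class and library and given as CPM of the class total. Ratios are KPC-shZEB1 over KPC-shV with exact 95% intervals. These cover counting error only. A difference was called past 1.5-fold among genes with at least 50 UMIs over both libraries. Free RNA was estimated from markers of other cell types and the library total. Named are the 9 members, other complement genes past 1.5-fold with abundant ones chosen after their values were seen, and the 3 genes most like each member. Members and lists were chosen with earlier results of these data known. Of 32285 gene identifiers, 32235 matched the GENCODE annotation used for coordinates. Calls were checked on counts simulated with counting error alone, which leaves out the spread between cells and between animals. Cell filters, doublets, clustering, naming, background and scaling were varied. Some items are not reported here.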

Additional observations from a re-analysis of the deposited data

Results flagged for a closer look

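Ratios on opposite sides of 1 in different classes, each with an interval that does not hold 1, were seen for C4b and Serping1. With 1 library per group, the difference between classes was not tested. C4b was at 0.737 in tumour-like cells (0.694 to 0.782) and at 2.05 in B-like cells (1.12 to 4.11), where 12 and 95 UMIs were counted, at 0.906 and 1.38 times the free RNA level. Serping1 was at 0.856 in tumour-like cells and 0.944 in fibroblast-like cells, and at 1.25 in endothelial-like cells (141 cells in KPC-shV and 87 in KPC-shZEB1). The tumour-like levels were 1.29 and 1.21 times the free RNA level. Under alternative settings the fibroblast-like ratio turned to 1.42 and 1.40, and the endothelial-like ratio to 0.973 and 0.855.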

How the results depend on the processing

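No paired analysis was possible because each group has 1 library, and no replicate could be left out. Of 1107 alternative values of class ratios, 1061 lay on the same side of 1 as the reported value. Of 75 for the C1q sum, C3, C4b, Cfb and Serping1 in their maker classes, 72 did. These counts are no measure of certainty. Naming clusters by mean log2 ratio left each of these maker-class ratios unchanged, and the larger count includes C1q ratios at background level. With complement genes kept in the clustering the ratios became 2.16 (C3), 1.56 (C4b), 1.92 (Cfb), 1.42 (Serping1) and 1.43 (C1q sum), and with at least 200 genes and 500 UMIs per cell 2.13 (C3), 1.55 (C4b), 1.90 (Cfb) and 1.40 (Serping1). The fibroblast-like class then held 815 and 541, or 854 and 578 cells, 455 and 159, or 454 and 165 of them tumour-like in the reported clustering, nearly all of cluster 7. With complement genes kept, C2 in fibroblast-like cells was at 1.81 and Cfb in tumour-like cells at 0.932. With cells assigned by marker UMIs, C3 was at 1.42, C4b at 1.03, Serping1 at 0.896 and the C1q sum at 1.36. In that setting the fibroblast-like class held 1069 and 1378 cells, 383 and 320 of them tumour-like in the reported clustering. With sub-clusters at fixed shares, chosen after seeing the data, the values were 1.27 (C3), 0.93 (C4b), 1.10 (Cfb), 0.832 (Serping1) and 1.32 (C1q sum). Division by the class median gave 1.49 for C3 and 1.37 for the C1q sum. Cfb was at 1.39 without the 5 top cells, and Serping1 at 0.982 without an upper UMI limit. The C1q sum was at 1.43 without doublet removal, 1.44 as a mean over cells and 1.37 with background subtracted. In granulocyte-like cells C1qc turned to 0.609 with background subtracted and C2 to 0.927 with cells assigned by marker UMIs, and the cause was not tested. Thinned to 1000 UMIs, shares of maker-class cells with a UMI in KPC-shV and KPC-shZEB1 were 82.2% and 93.2% (C1q), 74.7% and 78.8% (C3), 32.2% and 34.8% (Cfb), 79.5% and 81.9% (Serping1) and 30.3% and 36.3% (C4b). Unthinned and with cells assigned by marker UMIs, in the larger fibroblast-like class of that setting, they were 86.8% and 86.2% (C3), 59.1% and 63.1% (Cfb), 71.8% and 62.3% (Serping1) and 59.1% and 49.6% (C4b). Genes past the fold in fibroblast-like cells numbered 752 higher and 644 lower, 1768 and 1461 with at least 10 UMIs, and 314 and 230 with at least 200 UMIs. In monocyte-macrophage-like cells the counts were 1144 and 244, then 2508 and 734, and 456 and 102. Depth limits C2, C4b and C6 in the lymphoid, dendritic-like and endothelial-like classes, where each gene had 95 UMIs or fewer per class and library.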

Other observations

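Complement genes were also seen in classes too small to compare. An unnamed cluster led by Mmp7, Dcdc2a, Wfdc18 and Erbb4 had 1252 CPM of C3 in KPC-shV (7 cells, 239 UMIs) and 1385 CPM in KPC-shZEB1 (27 cells, 781 UMIs), below the fibroblast-like class and above the 8 others. Pericyte-like cells had 779.6 CPM of Serping1 in KPC-shV (14 cells, 194 UMIs) and 854.3 CPM in KPC-shZEB1 (10 cells, 154 UMIs). Acinar-like cells had 95.1 CPM of C3 (53.2 to 156.9) in KPC-shV (21 cells, 15 UMIs) and 253.8 CPM (223.0 to 287.7) in KPC-shZEB1 (276 cells, 245 UMIs). Free RNA was not estimated for these small groups, so its part in their values was not tested.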
